A study of Mus musculus with 4 samples.

Results

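Odorant-binding proteins and nasal lipocalins were examined in RNA-seq libraries of cells sorted from the mouse main olfactory epithelium (MOE). The genes were chosen by name, and 8 names were listed: *Obp1a*, *Obp2a*, *Obp2b*, *Lcn3*, *Lcn4*, *Lcn11*, *Lcn13*, and *Lcn14*. RefSeq gives *Lcn13* and *Lcn14* as older symbols of *Obp2a* and *Obp2b*, so the 8 names stand for 6 genes, all of which are among the 24421 genes of the deposited table.

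Lipocalins are small secreted proteins that fold into a barrel with an inner pocket for hydrophobic molecules. Those of the nose are made by glands and secretory cells and released into the mucus that covers the sensory cilia, where odorant-binding proteins are thought to carry odorants and pheromones. *Obp1a* encodes an odorant-binding protein from a gene family on the X chromosome. *Obp2a* and *Obp2b* belong to a lipocalin family on chromosome 2, together with *Lcn3* and *Lcn4*, which RefSeq also lists as *Vnsp1* and *Vnsp2* for vomeronasal secretory proteins 1 and 2, and *Lcn11*, for which no specific function is given here.

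The 4 libraries came from mice of 2 PiggyBac transgenic lines, labelled C57BL/6, in which a TAAR enhancer sits upstream of the Hsp68 minimal promoter and a reporter. TAARs are trace amine-associated receptors, a family of olfactory receptors found on a small share of the olfactory sensory neurons (OSNs). In the TAAR enhancer 1-GFP line, GFP-positive and GFP-negative cells were sorted by FACS after papain dissociation of the MOE, and in the TAAR enhancer 2-tdTomato line, tdTomato-positive and tdTomato-negative cells. Each line descends from 1 founder, males and females were used, and animals of similar age and the same genotype were pooled. The methods name C57BL/6J mice as the source of the injected eggs, and the Reporting Summary speaks of mixed backgrounds for the mouse lines of the study. The labels call the mice adult, while the Reporting Summary gives 14 days postnatal for the GFP line and 14 to 21 days for the tdTomato line. The lines differ in enhancer, reporter, founder, age range, and sort, which cannot be told apart, and the negative cells carry the same transgene as the positive cells. Each group is 1 library, so the values below have no replicate error and no test was made.

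Values are in TPM, a unit of transcript abundance that corrects for gene length and can be compared between genes of a library. Every library sums to 1000000 TPM, so its depth is unknown, and a gene family that takes up a large share lowers every other gene. The 10 highest genes held 31.5% of the TPM in GFP-positive cells and from 5.72% to 9.44% in the other libraries. A fold change is the difference of log2(TPM + 1), reporter-positive minus reporter-negative, and a gene was called higher or lower when it differed at least 2-fold on that scale. The 14 olfactory *Taar* genes, the receptors whose enhancers drive the reporters, summed to 804 TPM in positive and 86.1 TPM in negative cells of the GFP line, and to 3476 and 60.8 TPM, respectively, in the tdTomato line. *Omp*, a marker of mature OSNs, ranged from 1108 TPM in GFP-positive cells to 10108 TPM in tdTomato-negative cells.

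In the GENCODE M21 annotation of GRCm38 (mm10), 5 of the genes lie on chromosome 2 and 1 on the X chromosome. *Obp2a* (ENSMUSG00000062061.3, chr2:25700043-25703326), *Obp2b* (ENSMUSG00000079539.2, chr2:25737009-25740097), *Lcn3* (ENSMUSG00000026936.3, chr2:25765569-25768099), and *Lcn11* (ENSMUSG00000069080.5, chr2:25777017-25780279) follow each other on the plus strand within 80237 bases. *Lcn4* (ENSMUSG00000026919.1, chr2:26667674-26671282, minus strand) is 887394 bases farther along, and *Obp1a* (ENSMUSG00000067684.1, chrX:78085505-78091374, minus strand) is on the X chromosome. The genes have 6 (*Lcn11*) or 7 exons, and transcripts from 652 bases (*Lcn11*) to 774 bases (*Lcn4*). *Obp2a* and *Obp2b* transcripts are 73.9% identical, and 11.7% of the 50-base windows of *Obp2a* also occur in *Obp2b*. *Obp1a* shares 7.20% of its windows with its neighbor *Gm5938*, while *Lcn3*, *Lcn4*, and *Lcn11* share none with the other genes compared. How the authors' tools assigned reads from shared windows is not given in the sources used here, so the split between *Obp2a* and *Obp2b* is uncertain to that extent.

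The 90 bases upstream of the transcript starts are shown because these genes were high together in the GFP line and differed from each other in the tdTomato line. They are from RefSeq (GRCm38.p6), end 1 base before the most upstream annotated start, which for *Obp2b* and *Lcn3* is that of RefSeq, and are read 5′ to 3′ on the strand of the gene, and capitals mark TATAAA, the letters of a TATA box.
*Obp1a*, chrX:78091375-78091464, minus strand: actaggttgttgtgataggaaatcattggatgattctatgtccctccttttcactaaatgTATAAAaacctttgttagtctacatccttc
*Gm5938*, chrX:78125377-78125466, plus strand: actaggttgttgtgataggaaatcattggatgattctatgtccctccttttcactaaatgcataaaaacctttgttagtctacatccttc
*Gm14744*, chrX:77864668-77864757, plus strand: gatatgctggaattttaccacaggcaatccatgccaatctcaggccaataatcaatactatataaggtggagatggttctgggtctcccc
*5430402E10Rik*, chrX:77925063-77925152, minus strand: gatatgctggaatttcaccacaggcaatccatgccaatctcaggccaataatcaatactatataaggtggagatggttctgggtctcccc
*Obp2a*, chr2:25699953-25700042, plus strand: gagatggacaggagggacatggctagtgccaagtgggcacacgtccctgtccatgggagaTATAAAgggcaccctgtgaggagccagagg
*Obp2b*, chr2:25736917-25737006, plus strand: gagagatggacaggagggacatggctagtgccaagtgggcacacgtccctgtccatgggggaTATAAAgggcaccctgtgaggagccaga
*Lcn3*, chr2:25765443-25765532, plus strand: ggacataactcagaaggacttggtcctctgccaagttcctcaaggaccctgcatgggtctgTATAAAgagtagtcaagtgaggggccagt
*Lcn4*, chr2:26671283-26671372, minus strand: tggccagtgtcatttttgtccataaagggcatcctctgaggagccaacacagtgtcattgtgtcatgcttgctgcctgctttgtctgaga
*Lcn11*, chr2:25776927-25777016, plus strand: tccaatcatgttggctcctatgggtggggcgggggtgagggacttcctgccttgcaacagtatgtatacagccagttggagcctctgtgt

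TATAAA begins 30 bases before the start of *Obp1a* and *Obp2a*, 29 bases before that of *Lcn3*, and 28 bases before that of *Obp2b*. It was searched on both strands of the 100 bases upstream of every RefSeq start and was found in 5.56% of 32851 windows, and in those of 4 of the 6 genes (all but *Lcn4* and *Lcn11*). The upstream sequences of *Obp2a* and *Obp2b* are 98.9% identical over 88 aligned bases, more alike than their transcripts. *Obp1a* and *Gm5938* differ at 1 of the 90 bases, T61C, counted from 1 at the 5′ end of the stretch with the base of *Obp1a* first, and this base is the first of the TATAAA. The letters CCAAT, searched in the same way, were found in 18.9% of the windows, and in those of *Obp1a* and *Lcn11* among the 6 genes. These matches describe the sequence and were not tested as binding sites.

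*Obp2a* was the member with the highest level in any library. It was at 41227 TPM in positive and 1842 TPM in negative cells of the GFP line, and at 0.580 TPM in positive and 86.6 TPM in negative cells of the tdTomato line. The GFP-positive level was the 3rd highest of all genes in that library and made up 4.12% of its TPM, whereas in tdTomato-positive cells the transcript was close to 0. The log2 fold change was 4.48 in the GFP line and -5.79 in the tdTomato line, and the second value ranged from -6.99 to -3.19 with the pseudocount. In sorted bulk cells, fewer cells of a type and less RNA per cell cannot be told apart.

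*Obp2b* was at 31703 TPM in positive and 1757 TPM in negative cells of the GFP line, and at 11.0 TPM in positive and 5.14 TPM in negative cells of the tdTomato line. Both tdTomato libraries were therefore far below both GFP libraries. Its log2 fold change was 4.17 in the GFP line and 0.96 in the tdTomato line. The second value is just short of 2-fold and passed it with a pseudocount of 0.1 (1.08) and under all 3 other scalings of the libraries (1.02 to 1.76), whereas a pseudocount of 10 gave 0.47. The ratio of *Obp2a* to *Obp2b* TPM was 1.30 in GFP-positive and 1.05 in GFP-negative cells, against 0.0528 in tdTomato-positive and 16.8 in tdTomato-negative cells. The near-equal levels of the pair in the GFP line were thus not seen in the tdTomato line.

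*Lcn3*, a vomeronasal secretory protein, was at 7712 TPM in positive and 543 TPM in negative cells of the GFP line, and at 0.0864 TPM in positive and 0.300 TPM in negative cells of the tdTomato line. *Lcn4*, the other one, was at 203 TPM and 2771 TPM in GFP-negative and GFP-positive cells, respectively, and was listed at 0 in both tdTomato libraries. Both genes were high in the GFP line and below 1 TPM in the tdTomato line, in the negative cells too. Their log2 fold changes in the GFP line were 3.83 and 3.77, the smallest of the 6 genes, and *Lcn3* was 2.78 times *Lcn4* in GFP-positive and 2.68 times in GFP-negative cells. Because they are named after the vomeronasal organ, 6 markers of its sensory neurons were looked up, of which 5 are in the table. *Trpc2*, the channel of vomeronasal signal transduction, and *Vmn2r1*, a vomeronasal receptor, were listed at 0 in all 4 libraries, *Vmn2r2* and *H2-M10.2* stayed below 1 TPM, and *H2-M10.3* ranged from 0 TPM (GFP-positive) to 32.7 TPM (tdTomato-positive).

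*Lcn11* was at 7179 TPM in positive and 126 TPM in negative cells of the GFP line, and at 0.0906 TPM in positive and 299.5 TPM in negative cells of the tdTomato line. Unlike *Obp2b* and *Lcn3*, the genes just before it on the chromosome, it had a higher level in tdTomato-negative than in GFP-negative cells. Its log2 fold change was 5.82 in the GFP line and -8.11 in the tdTomato line, and the second value ranged from -10.62 to -4.94 over the alternatives, because the positive library was below 1 TPM and the pseudocount sets the size.

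*Obp1a* was at 32783 TPM in positive and 503 TPM in negative cells of the GFP line, and at 30.1 TPM in positive and 1518 TPM in negative cells of the tdTomato line. It was the member that was highest in both tdTomato libraries, ranking 40th of all genes in tdTomato-negative cells. The GFP-positive level was 65.1 times the GFP-negative level (log2 fold change 6.02), and the tdTomato-negative level was 50.5 times the tdTomato-positive level (log2 fold change -5.61).

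**Figure D1:**
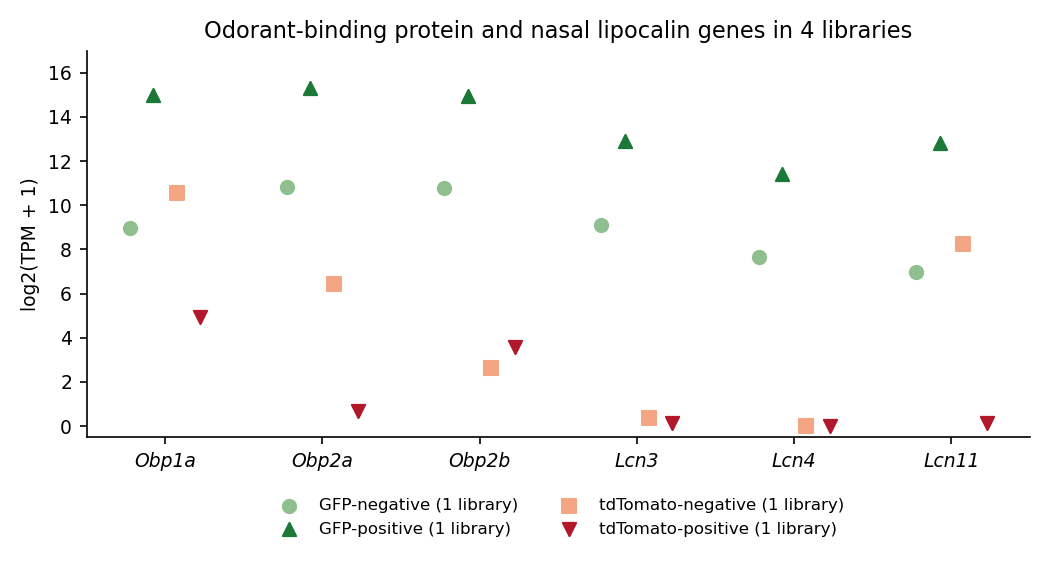
Level of each of the 6 genes on the log2(TPM + 1) scale (y axis), with 1 point per library in each of the 4 groups. GFP-positive cells are the highest library for every gene, from 2771 TPM (*Lcn4*) to 41227 TPM (*Obp2a*), while in the tdTomato line *Obp1a*, *Obp2a*, and *Lcn11* are higher in the negative cells.

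To ask how the genes differed between reporter-positive and reporter-negative cells, the fold changes were counted against all genes with at least 1 TPM in either library of the line. In the GFP line, 6 of 6 genes were higher in GFP-positive cells, where 14.2% of 16173 genes were called higher and 45.0% lower. The median log2 fold change was 4.33 for the 6 genes and -0.88 for all genes. The split of all genes depends on the scaling, and with median ratio scaling 21.4% were higher and 21.7% lower, with the 24 highest genes removed 17.6% and 29.7%, and with libraries scaled to mature OSN markers 76.7% and 7.82%. All 6 genes were called higher under each of these scalings.

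In the tdTomato line, 4 of the 6 genes reached 1 TPM in either library, and 3 of these 4 (*Obp1a*, *Obp2a*, and *Lcn11*) were lower in tdTomato-positive cells. Of the 15777 genes tested there, 23.2% were called lower and 17.2% higher. *Obp2a* and *Lcn11* passed the minimum of 1 TPM through the negative library alone, so they could differ in that direction only, and *Lcn3* and *Lcn4* did not pass it. The median log2 fold change was -5.70 for the 4 genes and -0.23 for all genes. Scaling to mature OSN markers, which called 12.5% of all genes lower and 38.3% higher, still gave 3 lower genes.

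Of 15033 genes that reached 1 TPM in each line, 226 (1.50%) were at least 2-fold higher in GFP-positive cells and at least 2-fold lower in tdTomato-positive cells, and *Obp1a*, *Obp2a*, and *Lcn11* are among them. Genes higher in the positive cells of both lines numbered 1266 (8.42%). The difference between the lines was not tested, as each has 1 library per group.

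**Figure D2:**
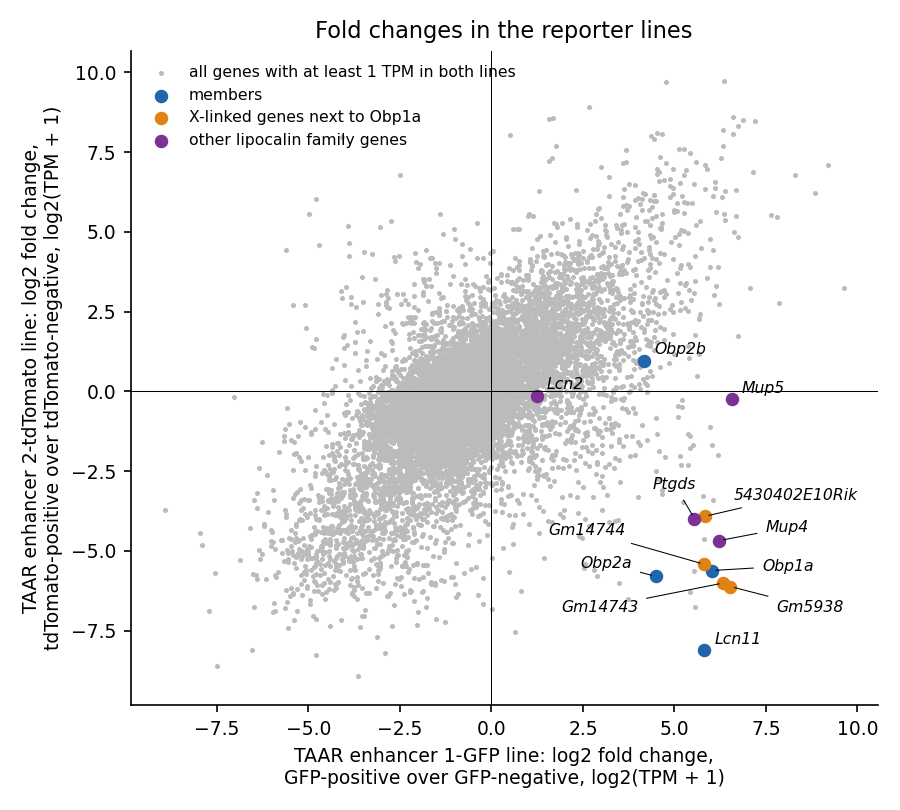
Log2 fold change in the tdTomato line (y axis) against that in the GFP line (x axis), both positive over negative cells on the log2(TPM + 1) scale, with 1 gray point per gene with at least 1 TPM in both lines, members in blue, X-linked neighbors in orange, and *Mup4*, *Mup5*, *Ptgds*, and *Lcn2* in purple. *Obp1a* (6.02 and -5.61), *Obp2a* (4.48 and -5.79), and *Lcn11* (5.82 and -8.11) lie at the lower right, while *Obp2b* (4.17 and 0.96) lies just above the horizontal line. *Lcn3* and *Lcn4* are not drawn because they are below 1 TPM in the tdTomato line.

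The 6 genes were also compared between the reporter-negative libraries of the 2 lines, which hold the MOE cells left after the reporter-positive cells are taken. In tdTomato-negative cells, *Obp1a* and *Lcn11* were higher than in GFP-negative cells by 1.59 and 1.24 on the log2 scale, respectively, and *Obp2a* (-4.40), *Obp2b* (-8.16), *Lcn3* (-8.71), and *Lcn4* (-7.67) were lower. That makes 2 of 6 genes higher, against 11.4% of 15899 genes, and 4 of 6 lower, against 12.4%. *Lcn3* and *Lcn4* reached 1 TPM in GFP-negative cells alone, so they could be called in that direction only. The median of all genes was 0.05. The 4 lower genes are all on chromosome 2, where *Lcn11* was the exception. Beside this, the summed mature OSN markers were at 28264 TPM in GFP-negative and 29123 TPM in tdTomato-negative cells, products of glands and goblet cells at 3863 and 14111 TPM (3222 and 7468 TPM without *Bpifa1*), and Bowman gland markers at 1844 and 587 TPM (142 and 377 TPM, the opposite direction, without the 3 genes also listed as gland products, *Muc5b*, *Bpifb9a*, and *Bpifb9b*). Their part in the result was not tested.

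The summed TPM of the 6 genes was 123374 in positive and 4974 in negative cells of the GFP line, and 41.8 in positive and 1909.7 in negative cells of the tdTomato line. In GFP-positive cells this was 12.3% of all TPM. The log2 ratio of the sums was 4.63 in the GFP line, a 24.8-fold higher sum, and -5.51 in the tdTomato line, a 45.7-fold lower sum. For the 5 genes on chromosome 2 alone, the log2 ratios were 4.34 and -5.06.

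The makeup of the sum differed between the lines. In GFP-negative cells, *Obp2a* and *Obp2b* made up 37.0% and 35.3%, and *Obp1a* made up 10.1%. In GFP-positive cells, the same genes made up 33.4%, 25.7%, and 26.6%. *Obp1a* dominated the tdTomato line, with 79.5% in negative cells and 71.9% in positive cells. The chromosome 2 genes together held 89.9% and 73.4% in the negative and positive cells of the GFP line, and 20.5% and 28.1% in those of the tdTomato line.

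**Figure D3:**
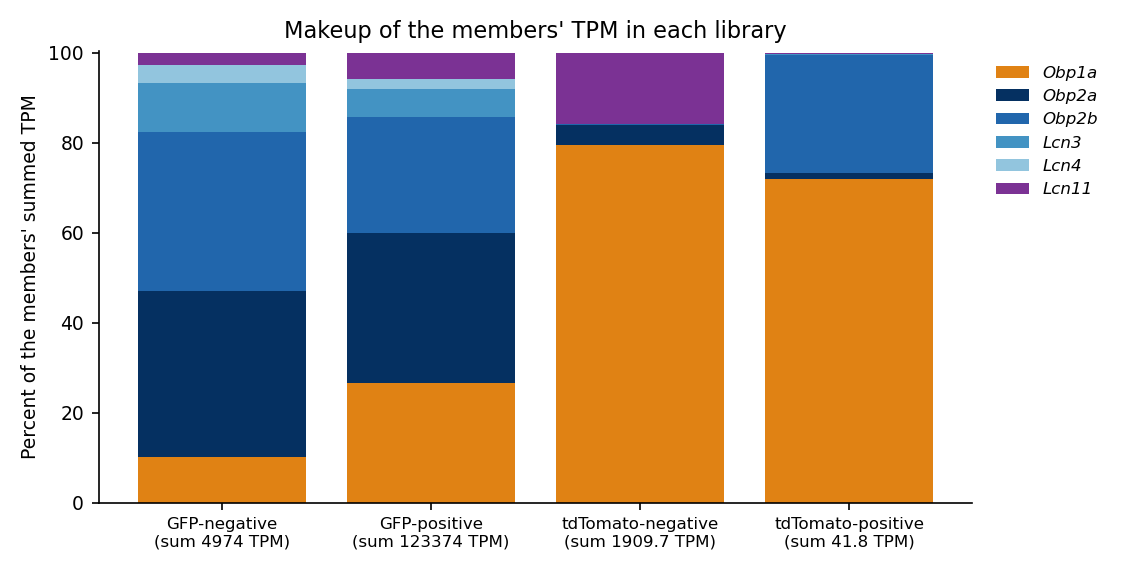
Share of the summed TPM of the 6 genes held by each gene (percent, stacked bars from 0) in each library. *Obp2a* and *Obp2b* take most of the bar in GFP-negative cells, and *Obp1a* takes 79.5% and 71.9% of the bars of the tdTomato line.

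The levels were then laid out in the order of the genes on the chromosome. On chromosome 2, the run of genes that were high in the GFP line begins at *Obp2a* and ends at *Lcn11*. The lipocalin genes on either side, *Lcn8*, *Lcn5*, *Lcn6*, and *Lcn10* before *Obp2a* and *Lcn9* after *Lcn11*, known for expression in the epididymis, were all listed at 0 in all 4 libraries (5 of 5). *Lcn10* ends 13961 bases before *Obp2a*, and *Lcn9* begins 42873 bases after *Lcn11*. *Bmyc*, a gene of the Myc family between *Obp2a* and *Obp2b*, was at 63.6, 57.8, 44.9, and 36.1 TPM in GFP-negative, GFP-positive, tdTomato-negative, and tdTomato-positive cells, so its level varied little beside that of its neighbors (log2 fold changes -0.14 and -0.31).

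**Figure D4:**
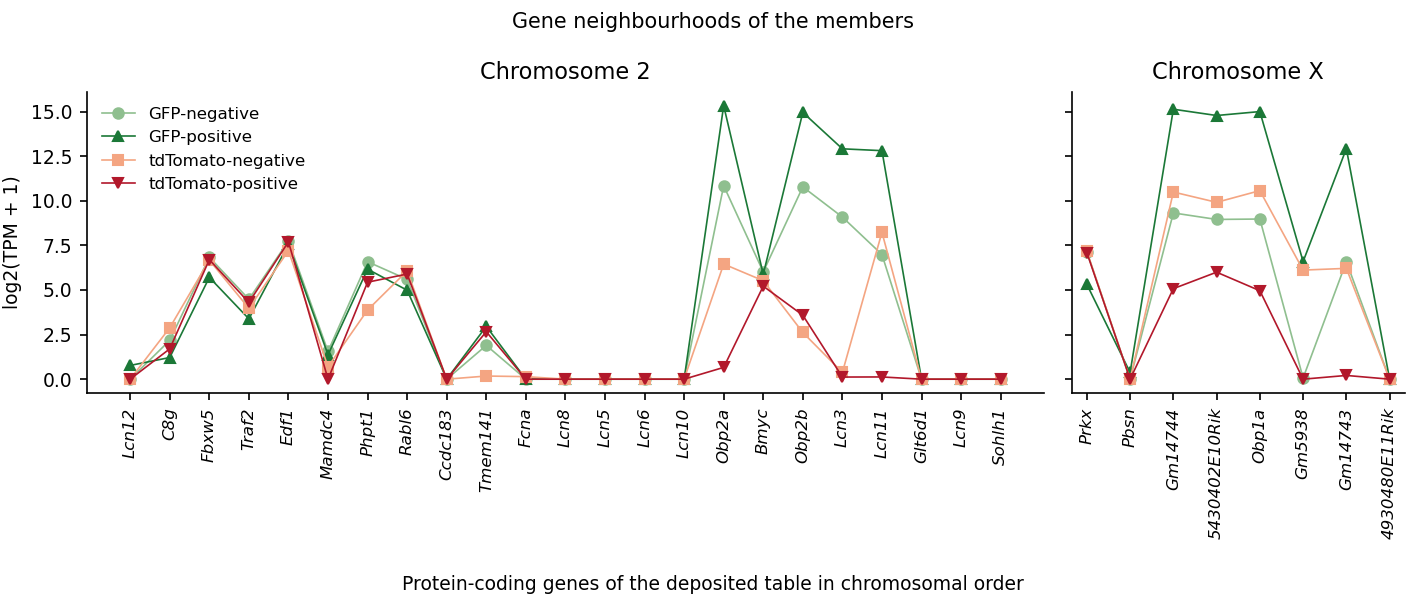
Level on the log2(TPM + 1) scale of protein-coding genes in chromosomal order around the chromosome 2 members (left, without *Lcn4*) and around *Obp1a* (right), with 1 line per library. *Obp2a*, *Obp2b*, *Lcn3*, and *Lcn11* stand above their neighbors in the GFP-positive library, with *Bmyc* flat between them, and on the X chromosome *Gm14744*, *5430402E10Rik*, *Obp1a*, and *Gm14743* stand above *Gm5938* and the flanking genes in that library.

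On the X chromosome, *Obp1a* lies among *Gm14744*, *5430402E10Rik*, *Gm5938*, and *Gm14743*, which RefSeq or the sequence places in the same odorant-binding protein family and which span 381164 bases. These 4 genes were added after their values had been seen. *Gm14744* was at 35912 TPM in positive and 638 TPM in negative cells of the GFP line, and at 32.7 TPM in positive and 1438 TPM in negative cells of the tdTomato line. It followed *Obp1a* closely, at 1.27, 1.10, 0.947, and 1.09 times its level in GFP-negative, GFP-positive, tdTomato-negative, and tdTomato-positive cells, respectively. The sequences shown above differ between the 2 genes, and their transcripts are 55.9% identical. *5430402E10Rik* was at 495, 28136, 963, and 62.9 TPM in that order, but 72.1% of its windows are shared with *Gm14744* and *Gm14750*, so the split of reads between them is uncertain. *Gm14743* was at 95.2, 7770.2, 73.1, and 0.156 TPM. Its transcript is 99.3% identical to that of *Obp1b*, a gene whose level was not analysed here, so its value may hold reads of both. *Gm5938*, whose upstream sequence differs from that of *Obp1a* by the base named above, was at 0.0457, 95.6, 68.3, and 0 TPM, and *Obp1a* was 343 times as high in GFP-positive cells and 22.2 times as high in tdTomato-negative cells. All 4 genes were higher in GFP-positive cells and lower in tdTomato-positive cells, with median log2 fold changes of 6.08 and -5.71. *Gm5938* in both lines and *Gm14743* in the tdTomato line passed the minimum through 1 library alone, which fixes their direction, and the pseudocount sets the size of their fold changes (3.39 to 9.36 and -9.42 to -2.97 for *Gm5938* over the alternatives, and -8.16 to -3.03 for *Gm14743* in the tdTomato line). With them, the summed TPM in GFP-positive cells was 195288, or 19.5% of the library.

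Other lipocalin genes were read from a list of 32 names, of which 24 are in the table. In the GFP line, 10 reached 1 TPM, of which 8 were higher and 1 was lower, beside 14.2% and 45.0% of all genes, and the median log2 fold change was 2.17. At the 4-fold threshold 5 were higher. Of the 8, *Orm2*, *Orm3*, and *Mup6* passed the minimum through the positive library alone and could be called in that direction only. Only 9 genes of the list reached 1 TPM in the tdTomato line, of which 3 were higher and 4 were lower, with a median of -0.24, beside the 17.2% higher and 23.2% lower of all genes given above. *Orm1* and *Orm2* passed the minimum through the positive library alone and *Ptgds* through the negative library alone, and with a pseudocount of 10 the counts were 1 higher and 2 lower. *Mup4*, a major urinary protein also made in nasal glands, was at 145, 10941, 222, and 7.77 TPM in GFP-negative, GFP-positive, tdTomato-negative, and tdTomato-positive cells, and like *Obp1a* it was lower in tdTomato-positive cells (log2 fold changes 6.23 and -4.67). *Mup5* was at 62.3, 5984, 6.12, and 5.01 TPM, with log2 fold changes of 6.56 and -0.24, and like *Obp2b* was not called in the tdTomato line. *Ptgds*, which makes prostaglandin D2, was at 11.2, 570.5, 16.0, and 0.0734 TPM (5.55 and -3.98). *Lcn2*, an iron-siderophore-binding protein of innate immunity, varied less, at 720.4, 1697, 291, and 265 TPM (1.23 and -0.13). *Apod*, a lipid carrier, was the gene that was lower in GFP-positive cells, at 60.0, 2.74, 5.87, and 16.8 TPM (-4.03 and 1.37). *Orm1*, an acute-phase plasma protein, was higher in both lines, at 4.84, 48.3, 0, and 11.9 TPM (3.08 and 3.69).

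For each of the 6 genes, the 3 genes most like it in their pattern over the 4 libraries were found among the 13010 genes that reached 10 TPM in at least 1 library. The 6 genes themselves were left out of the search, so none could be named as most like another. Likeness was the largest difference on the log2(TPM + 1) scale after each gene's own mean had been subtracted. *Gm14744* was the gene most like *Obp1a*, with a largest difference of 0.21, followed by *Gpx6*, a glutathione peroxidase of the olfactory glands (0.50), and *Prss33*, a serine protease (0.76). *Gpx6* was at 104, 5914, 209, and 7.54 TPM in the order of libraries used above. *Lcn11* was most like *Gm14743* (1.46), *Gm14744* (1.98), and *Mup4* (2.16), which are all lipocalins. For *Obp2a* the genes were *Gm14743* (2.42), *Scgb1b27* (3.03), and *Gm14744* (3.21). *Mup5* (2.80), *Gkn3* (2.87), and *A630073D07Rik* (3.02) came closest to *Obp2b* among the genes searched. Among the genes searched, *Bpifb6*, *Gkn3*, and *A630073D07Rik* were the nearest to *Lcn3* (3.03, 3.12, and 3.34) and, in another order, to *Lcn4* (2.51, 2.49, and 2.71). *Gkn3* had 100.3 TPM and *A630073D07Rik* had 83.0 TPM in GFP-positive cells, against 8.97 and 9.44 TPM in GFP-negative cells, and both were listed at 0 in both tdTomato libraries. No gene outside the 6 came as close to the chromosome 2 members as *Gm14744* did to *Obp1a*. How alike the 6 genes are to each other was not measured in this way.

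Markers of the cell types that could be in the sorted libraries were set beside these genes. Secreted products of nasal glands and goblet cells, in 17 listed genes, summed to 149399.7 TPM in positive and 3863 TPM in negative cells of the GFP line, and to 56846 TPM in positive and 14111 TPM in negative cells of the tdTomato line. The second difference rests on *Bpifa1*, an antimicrobial airway protein, without which the sums in the tdTomato line were 3468 and 7468 TPM, respectively, and the direction turned. In the GFP line 16 of the 16 that reached 1 TPM were higher, at a median of 5.39. In the tdTomato line 9 of these 16 were higher and 6 were lower (median 1.75), and *Scgb1a1* was listed at 0 in all libraries. *Azgp1* in the GFP line and *Dmbt1* in the tdTomato line passed the minimum through the positive library alone, so there they could be called higher only. The products lower with *Obp1a* and *Lcn11* in the tdTomato line include *Bpifb3* (-6.76) and *Scgb1c1* (-3.46), while *Bpifa1* (3.01), *Bpifb9b* (3.17), and the mucin gene *Muc5b* (2.80) were higher. Markers of Bowman glands, which secrete olfactory mucus, had 8 of 8 genes higher in the GFP line (summed 1844 and 75038 TPM in negative and positive cells) and 5 higher and 2 lower in the tdTomato line (summed 587 and 2248 TPM). Of these genes, *Muc5b*, *Bpifb9a*, and *Bpifb9b* are also on the list of gland products, and without them 5 of 5 were higher in the GFP line (142 and 6419.5 TPM) and 2 were higher and 2 lower in the tdTomato line (377 and 386 TPM). The 2 lower ones were *Gpx6* (-4.62) and *Sox10*, a transcription factor of gland cells (-1.17). *Sox10* passed the minimum of 1 TPM through the negative library alone (3.41 TPM, against 0.958 TPM in positive cells), so it could be called lower only. *Aqp5*, a water channel of gland cells, was higher in both lines (4.39 and 3.11).

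Markers of sustentacular cells, the supporting cells of the epithelium, were higher in GFP-positive cells in 9 of 9 cases and were split 5 to 2 in the tdTomato line, and their sums were 1553, 14277, 2649.8, and 13382 TPM in GFP-negative, GFP-positive, tdTomato-negative, and tdTomato-positive cells. Of the 5 higher in the tdTomato line, *Ugt2a1* and *Hes1* did not reach the 4-fold threshold (log2 fold changes 1.13 and 1.88). Multiciliated cell markers were higher in 9 of 10 and 10 of 10 cases (743, 2681, 706, and 8616 TPM), although 3 of them in the GFP line and 1 in the tdTomato line passed the minimum through the positive library alone, and 4 were higher in the GFP line at the 4-fold threshold. Horizontal basal cell markers, 4 of 5 higher in the GFP line and 5 of 5 lower in the tdTomato line, had the direction of *Obp1a* in both (63.0, 629, 152, and 29.1 TPM). Mature OSN markers were lower in 12 of 12 cases in the GFP line and in 6 of 12 in the tdTomato line (28264, 3131, 29123, and 13119 TPM), immature OSN markers in 5 and 2 of 5 (1529, 353, 1263, and 739.6 TPM), and leukocyte markers in 5 of 5 in each line (2983, 167, 2203, and 132 TPM). Of all genes, 45.0% were lower in the GFP line and 23.2% in the tdTomato line, and at the 4-fold threshold no mature or immature OSN marker was lower in the tdTomato line. With libraries scaled to mature OSN markers, which sets these markers to no change by construction, no immature OSN marker was lower in either line and 1 was higher in the GFP line. The part of these cell types in the differences of the odorant-binding proteins and lipocalins was not tested.

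**Figure D5:**
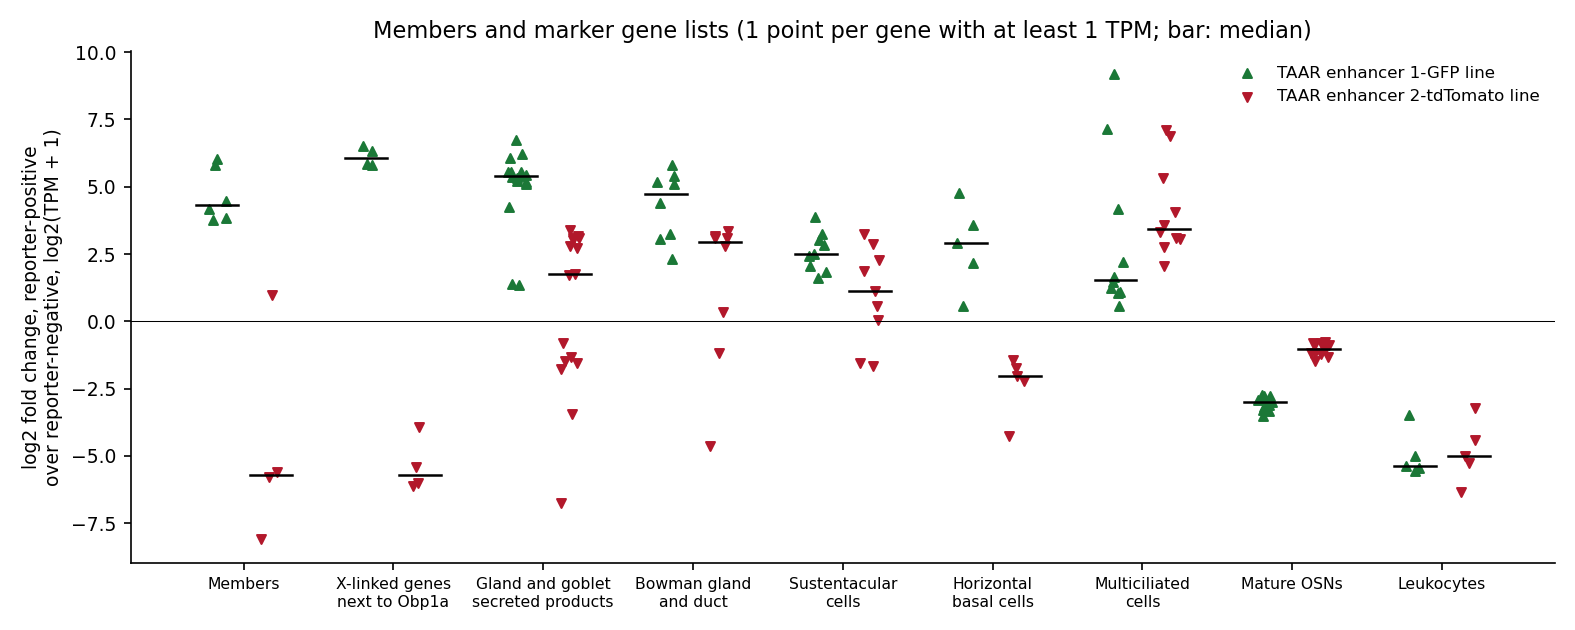
Log2 fold change, positive over negative cells on the log2(TPM + 1) scale, of each gene with at least 1 TPM in the line, by gene list, with upward triangles for the GFP line, downward triangles for the tdTomato line, and a bar at the median. The members have medians of 4.33 and -5.70, and the gland and goblet cell products, at 5.39 and 1.75, are split in the tdTomato line.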

How the data were processed

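Reporter-positive and reporter-negative cells of the MOE were profiled by RNA-seq, with 1 library for each of 4 groups, and samples were grouped by their titles. The authors deposited TPM values per gene symbol, scaled to 1000000 per library. The submitters' processing notes name Trimmomatic 0.36, Salmon 1.4.0, and mm10, and the labels name Vazyme kits, whereas the study's methods name RNeasy, Smart-seq2, Hisat2 2.1.0, Cufflinks 2.2.1, and featureCounts of Subread 1.6.2. Which of these gave the values, the annotation, and how reads shared by paralogs were assigned are not given in the sources used here.

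From the TPM values, log2 fold changes with a pseudocount of 1 were calculated. Genes with at least 1 TPM in either library of a comparison were tested against a 2-fold threshold. No p-values, intervals, or detection limits were calculated, because each group has 1 library and TPM keeps no depth. The calculation was checked on made-up tables with known answers. Positions are from GENCODE M21, sequences and older symbols from RefSeq, and percent identity and shared windows from the GENCODE transcripts.

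The members, lists, and alternatives were chosen with earlier results of these data known. Genes named are the members, genes of the lists with at least 10 TPM in any library, and the 3 genes most like each member, with the members left out of that search. Outside this rule, the X-linked genes, *Bmyc*, and list genes below 10 TPM that are named as absent or low (*Trpc2*, *Vmn2r1*, *Vmn2r2*, *H2-M10.2*, *Scgb1a1*, *Orm2*, *Orm3*, and the lipocalin neighbors) were chosen after values were seen. Alternatives were pseudocounts of 0.1 and 10, a 4-fold threshold, other backgrounds, 3 other scalings, and sums with other genes. Python 3.11.15, NumPy 2.4.6, pandas 2.3.3, Biopython 1.88, and matplotlib 3.10.9 were used.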

Additional observations from a re-analysis of the deposited data

Results flagged for a closer look

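Of the 34 member, X-linked, and other lipocalin genes in the table, 16 reached 1 TPM in each line, and 9 of these were at least 2-fold higher in GFP-positive cells and at least 2-fold lower in tdTomato-positive cells, as were 226 of 15033 genes (1.50%) that passed the same minimum. The 4 X-linked genes, all among the 9, were added after their values had been seen. Of the 9, *Obp2a*, *Lcn11*, *Gm5938*, *Gm14743*, and *Ptgds* passed the minimum of 1 TPM in the tdTomato line through the negative library alone, which fixes that direction. The difference between the lines was not tested because each group has 1 library. Among the odorant-binding proteins and nasal lipocalins, the fold changes of the lines differed by 13.93 for *Lcn11*, 11.64 for *Obp1a*, and 10.28 for *Obp2a* on the log2 scale. For the X-linked neighbors of *Obp1a*, the difference was 12.64 for *Gm5938*, 12.34 for *Gm14743*, 11.23 for *Gm14744*, and 9.74 for *5430402E10Rik*. It was 10.90 for *Mup4* and 9.53 for *Ptgds*. Where a library was near 0, the size of the difference depends on the pseudocount. With a pseudocount of 10 it was 6.36 for *Gm5938*, 6.14 for *Ptgds*, 7.67 for *Obp2a*, 9.24 for *Gm14743*, and 10.66 for *Lcn11*, against 11.25 for *Obp1a*, so the order of the genes by this difference is not fixed.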

How the results depend on the processing

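The counts of 6 higher genes in the GFP line and 3 lower genes in the tdTomato line held under every alternative run, the 4-fold threshold included, and neither the sum of the 6 genes nor any of the genes called changed direction. The log2 ratio of the summed TPM in the GFP line, 4.63, was 5.52 with median ratio scaling and 7.69 when libraries were scaled to mature OSN markers. That scaling gave -4.47 in the tdTomato line, against -5.51. These scalings shift every gene by 0.88 and 3.06 in the GFP line and by 0.16 and 1.04 in the tdTomato line. With the X-linked genes, an alternative chosen after seeing the data, the ratios were 4.98 and -5.02. Of sums chosen after seeing the data as well, that of the gland and goblet cell products in the tdTomato line turned from a log2 ratio of 2.01 to -1.11 without *Bpifa1*, and that of the Bowman gland markers went from 1.94 to 0.03 without the 3 genes shared between these lists. Among values of single genes under an alternative, 39 moved by more than 0.58 on the log2 scale and 51 did not, and among gene list counts 27 moved by more than 1.5 times and 261 did not. Under the scaling to mature OSN markers, the genes called lower in the tdTomato line were 2 instead of 6 gland and goblet cell products, 1 instead of 2 Bowman gland markers, 0 instead of 2 sustentacular cell markers, 3 instead of 5 horizontal basal cell markers, and 2 instead of 4 other lipocalins. The 4-fold threshold gave the same lower counts for these lists in the tdTomato line. No paired analysis was possible because there is a single library in every group and nothing was tested. Depth is unknown, so levels below 1 TPM cannot be told from no expression.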
